A study of Mus musculus with 6 samples.

Results

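The genes examined encode proteins of the tight junction, the seal between neighbouring epithelial cells: the MARVEL domain proteins Marveld2, Marveld3 and Ocln, the claudins Cldn1, Cldn2, Cldn3, Cldn12 and Cldn14, and the scaffold Tjp1, which is neither a claudin nor a MARVEL protein. They are 9 of the 18193 genes that the array names, and were taken as every probe set whose annotated symbol is 1 of the 9, which gave 20 probe sets. The genes were chosen by their measured log2 differences between LIGHT Tg and WT on these arrays, so those differences are given as a description and without p-values. Whole livers came from 3 LIGHT Tg mice and 3 WT mice, all 4 to 8 weeks old and all fed a high-fat diet for 2 weeks, with 1 Affymetrix array per sample. LIGHT, a cytokine of the TNF superfamily, is the product of Tnfsf14. The WT mice are labelled B6 and the LIGHT Tg mice carry no strain label, so genetic background and transgene cannot be told apart. No source used here gives the promoter of the transgene, the number of founder lines or whether livers were pooled. The groups follow the source names, while the free-text description of every sample speaks of wild-type mice. Nothing in the labels says that samples came from separate litters or days, and the errors below measure the spread between these 6 samples.

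Tight junctions close the space between cells and separate the apical from the basolateral membrane. In liver they line the bile canaliculus, where they keep bile apart from blood. Claudins are membrane proteins with 4 transmembrane segments that polymerise into strands and set which ions and solutes pass, Ocln and its MARVEL relatives associate with those strands, and Tjp1 ties the strands to the actin cytoskeleton. In a whole-liver sample, fewer cells of a type and less RNA per cell cannot be told apart.

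The values are MAS5 signals, 1 per probe set on a linear scale, with array medians between 175.1 and 183.1. Of the variance among arrays, 48.0% lay along a first component that parted the arrays titled 77 and 78 (LIGHT Tg 1 and WT 1) from the 4 arrays titled 30 to 35 (LIGHT Tg 2 and 3, WT 2 and 3), and 30.3% along a second that parted the genotypes. At the probe set 1427262_at of Xist, transcribed from the inactive X chromosome, the arrays titled 77 and 78 had signals of 5.4 and 7.1, against 6673 to 8406 on the others. At 1417210_at of the Y-linked Eif2s3y they had 1272 and 1037, against 2.1 to 2.82. The sets thus differ at an X-linked and a Y-linked transcript as male and female mice do; the labels give no sex, so sex and anything else that differs between the sets cannot be told apart. Each set holds both genotypes, and genotype differences are also given within each set. At the brighter Tnfsf14 probe set the signals were 55.7, 19.3 and 26.7 in LIGHT Tg 1 to 3 and 7.7, 11.9 and 7.43 in WT 1 to 3, near the bottom of the signal range. At the other, 1450298_at, they were lower still and overlapped: 2.3, 3.1 and 5.6 in LIGHT Tg 1 to 3 and 4.25, 3.75 and 7.83 in WT 1 to 3. The log2 difference there was -0.55 ± 0.543. At the brighter probe set, 1421588_at, it was 1.8 ± 0.594, and all LIGHT Tg signals lay above all WT signals.

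Among the junction genes, LIGHT Tg livers had higher Marveld3 signal and lower Cldn12 signal than WT livers, with smaller positive differences at Cldn2, Cldn14 and Tjp1. Ocln, Marveld2, Cldn1 and Cldn3 differed by less than, or about as much as, the spread between arrays of a genotype. Of the 20 probe sets 17 passed the filter on low signal, which was the median of the mean log2 signal over all probe sets (7.387, a signal of 167.4), and each of the 9 genes had at least 1 among them. In the limma fit over 22519 probe sets 1 of the 17, at Marveld3, passed 5% FDR, where 1.17% of all tested probe sets passed (0.715% higher and 0.457% lower). With the title-number set as a block 5 of the 17 passed (4 higher and 1 lower), where 6.47% of all tested probe sets passed (3.26% higher and 3.21% lower). These counts describe genes chosen with the contrast known and are no test of them. Among the calls, Marveld3 1453264_at (in both fits) and 1451764_at (with the block) had mean WT signals of 131.1 and 122.6, below the filter level. They entered the fits through their LIGHT Tg signal. Over all 20 probe sets 18 had a positive and 2 a negative log2 difference, with a median of 0.30, beside -0.01 over all probe sets. Leaving out 1 array turned the sign at 6 of the 20, all with differences of 0.30 or less: both Ocln probe sets, Cldn1 1437932_a_at and 1438850_at, and Cldn3 1434651_a_at and 1451701_x_at, with lowest values of -0.27 to -0.03. All LIGHT Tg signals lay above all WT signals at 4 of the 20, where 6.7% of all probe sets did so, and below them at 2 of the 20, where 7.02% did so.

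**Figure D1:**
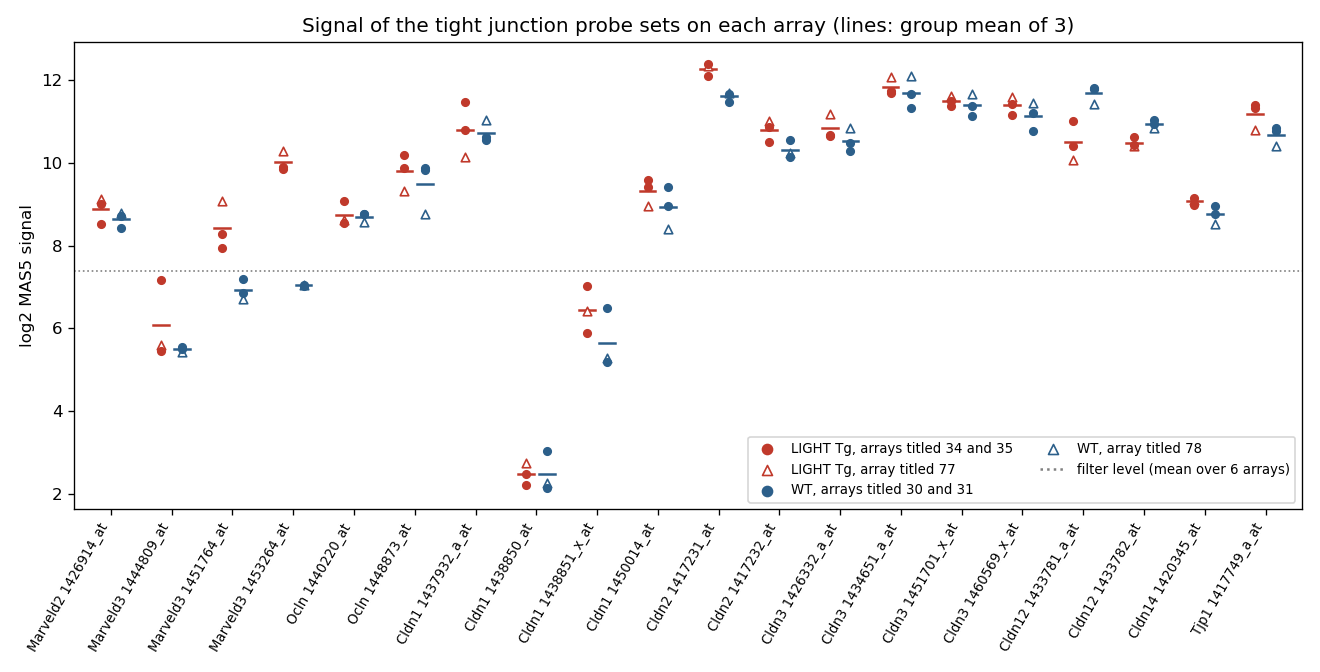
Log2 MAS5 signal of the 20 probe sets on each array, LIGHT Tg (red) left of WT (blue) in each column; open triangles are the arrays titled 77 and 78, filled circles the arrays titled 30 to 35, short lines the mean of 3 arrays, and the dotted line the filter level of 7.387. At Marveld3 1453264_at the 3 LIGHT Tg points lie above the filter level and the 3 WT points below it, and 3 probe sets (1 of Marveld3 and 2 of Cldn1) have means below it.

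Marveld3, a MARVEL domain protein that links the junction to stress-kinase signalling in cultured epithelial cells, had the largest difference. At probe set 1453264_at the signals were 1250, 962.8 and 927.3 in LIGHT Tg 1 to 3 and 131.2, 132.9 and 129.4 in WT 1 to 3. The WT arrays were nearly level and every LIGHT Tg array lay far above them. LIGHT Tg livers were 7.91-fold higher, a log2 difference of 2.98 ± 0.198 (± SE, with 3 arrays of each genotype), with 3.25 between the arrays titled 77 and 78 and 2.85 within the arrays titled 30 to 35. The mean WT signal of 131.1 ± 1.74 (SD, n = 3) was below the filter level, so this probe set entered the test through its LIGHT Tg signal, and no detection calls were at hand to show whether WT signal exceeded background.

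Another Marveld3 probe set, 1451764_at, had the same direction with a smaller difference. Its signals were 544.1, 310.7 and 245.8 in LIGHT Tg livers and 104.2, 147.3 and 116.2 in WT livers, so the groups did not overlap. The log2 difference was 1.51 ± 0.351, and it was larger between the arrays titled 77 and 78 (2.39) than within the others (1.08). Its mean WT signal of 122.6 was also below the filter level, so it too entered the fit through its LIGHT Tg arrays. The third probe set, 1444809_at, was below the filter and its groups overlapped: LIGHT Tg 2 had 144.0, while LIGHT Tg 1 and 3 had 48.63 and 43.4 and the WT livers had 42.88, 46.4 and 45.62. Its log2 difference of 0.58 ± 0.572 came to 0.03 without LIGHT Tg 2. Over the 6 arrays the first and second of these probe sets had a Pearson correlation of 0.93, and the third had 0.44 and 0.37 with them, as a description of points that share their arrays.

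Marveld2, known as tricellulin, seals the corners where 3 cells meet. Its single probe set, 1426914_at, had signals of 559.6, 365.7 and 514.6 in LIGHT Tg livers and 438.8, 342.2 and 422.8 in WT livers. The groups overlapped, and the log2 difference was 0.24 ± 0.230. Ocln, the first membrane protein described in tight junctions, had signals of 641.2, 1162 and 940.8 in LIGHT Tg livers and 437.7, 913.7 and 945.8 in WT livers at 1448873_at, a log2 difference of 0.30 ± 0.359 that was -0.07 without WT 1. At 1440220_at Ocln had 390.0, 545.1 and 376.9 in LIGHT Tg livers and 379.7, 431.5 and 436.0 in WT livers, a log2 difference of 0.06 ± 0.213. Neither probe set separated the genotypes. Ocln and Marveld2 are near neighbours in the RefSeq gene order of GRCm38.p6, with 2 annotated loci starting between them.

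Cldn2 forms paracellular channels for cations and water. At 1417231_at its signals were 5161, 4397 and 5406 in LIGHT Tg livers and 3316, 2823 and 3254 in WT livers, with no overlap. The log2 difference was 0.67 ± 0.141, a ratio of 1.59, with 0.64 between the arrays titled 77 and 78 and 0.69 within the others. At 1417232_at the signals were 2050, 1446 and 1862 in LIGHT Tg livers and 1209, 1506 and 1125 in WT livers. Here LIGHT Tg 2 lay below WT 2, and the log2 difference was 0.48 ± 0.198, in the same direction.

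Cldn12, a claudin whose cytoplasmic tail lacks the usual PDZ-binding end, was the only member with lower signal in LIGHT Tg livers, and was so at both of its probe sets. At 1433781_a_at the signals were 1073, 2082 and 1361 in LIGHT Tg livers and 2769, 3548 and 3605 in WT livers, a log2 difference of -1.18 ± 0.259. WT signal was 2.27-fold that of LIGHT Tg, and the highest LIGHT Tg array lay below the lowest WT array. The difference was -1.37 between the arrays titled 77 and 78 and -1.09 within the others. At 1433782_at the signals were 1355, 1586 and 1383 in LIGHT Tg livers and 1825, 2107 and 1960 in WT livers, again without overlap, a log2 difference of -0.45 ± 0.148. The 2 probe sets ran together over the 6 arrays (Pearson correlation 0.98) while giving differences of unequal size.

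Cldn14, which restricts cation passage in the inner ear and kidney, had signals of 549.4, 572.4 and 506.4 in LIGHT Tg livers and 368.4, 437.1 and 499.5 in WT livers at 1420345_at. The groups did not overlap, but the lowest LIGHT Tg array and the highest WT array were close. The log2 difference was 0.33 ± 0.189, with 0.58 between the arrays titled 77 and 78 and 0.20 within the others.

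Cldn1 and Cldn3, which form the barrier in many epithelia, showed no separation of the genotypes. At 1450014_at Cldn1 had signals of 500.0, 682.8 and 765.9 in LIGHT Tg livers and 335.8, 687.4 and 494.3 in WT livers, a log2 difference of 0.40 ± 0.303. At 1437932_a_at it had 1128, 1766 and 2843 in LIGHT Tg livers and 2092, 1499 and 1576 in WT livers. There LIGHT Tg 1 was the lowest of the 6 arrays and LIGHT Tg 3 the highest, so that the log2 difference of 0.07 ± 0.333 combined -0.89 between the arrays titled 77 and 78 with 0.54 within the others. The other 2 Cldn1 probe sets were below the filter, with signals of 4.65 to 6.7 in LIGHT Tg livers and 4.4 to 8.18 in WT livers at 1438850_at, and of 59.05 to 130.0 in LIGHT Tg livers and 36.43 to 89.52 in WT livers at 1438851_x_at. Correlations among the 4 Cldn1 probe sets over the 6 arrays lay between -0.37 and 0.35, so they gave no common pattern. The suffix x marks a probe set that may also bind other transcripts, and the suffix a one whose probes are shared by transcripts of a gene.

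Cldn3 had 4 probe sets, all past the filter and all correlated between 0.68 and 0.98 over the 6 arrays. Their log2 differences were 0.30 ± 0.220 at 1426332_a_at, 0.13 ± 0.222 at 1434651_a_at, 0.11 ± 0.174 at 1451701_x_at and 0.25 ± 0.212 at 1460569_x_at. At the first the signals were 2329, 1610 and 1624 in LIGHT Tg livers and 1827, 1430 and 1254 in WT livers. The groups overlapped at each of the 4, and LIGHT Tg 1 and WT 1 were the highest array of their genotype at each.

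Tjp1, the scaffold known as ZO-1, had signals of 1782, 2573 and 2690 in LIGHT Tg livers and 1367, 1739 and 1841 in WT livers at its single probe set, 1417749_a_at. LIGHT Tg 1 lay below WT 3, but within each title-number set LIGHT Tg was higher. The log2 difference was 0.50 ± 0.213, with 0.38 between the arrays titled 77 and 78 and 0.56 within the others.

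**Figure D2:**
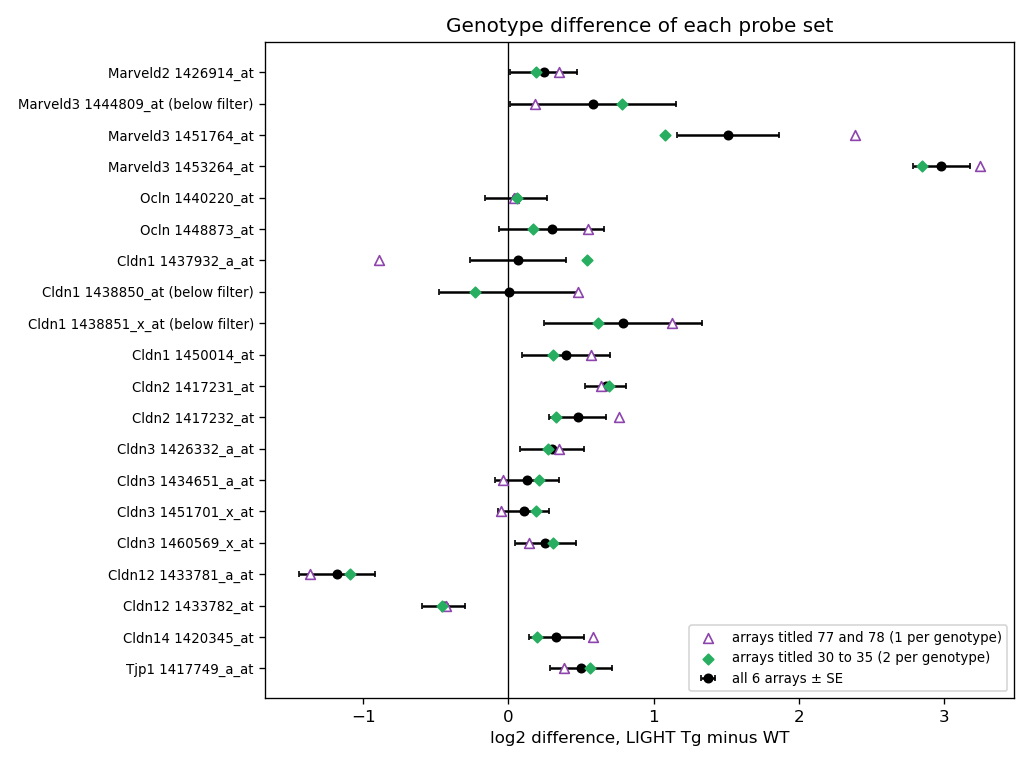
Log2 difference, LIGHT Tg minus WT, of the 20 probe sets: black circles with bars are the estimate from all 6 arrays ± SE, open triangles the difference between the arrays titled 77 and 78, green diamonds that within the arrays titled 30 to 35. Both Cldn12 probe sets lie left of 0 in each set and Marveld3 1453264_at lies near 3 in each, whereas Cldn1 1437932_a_at has -0.89 and 0.54 in the sets.

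Upstream sequence was examined for the 8 member genes with an entry in the RefSeq promoter table of GRCm38.p6; Marveld3 had none. The sequences shown are the 250 bases before the outermost start of Cldn2 and Cldn12, whose differences had opposite signs and no overlap at 1417231_at and 1433781_a_at, and of Cldn1, whose genotypes overlapped. Capitals mark matches on either strand to the Snail E-box CACCTG, the GC box GGGCGG, the AP-1 site TGANTCA, the HNF1 core GTTAAT and the TATA box TATAAA. They lie at chrX:139800558-139800807 (plus strand) for Cldn2, chr5:5514977-5515226 (minus strand) for Cldn12 and chr16:26371840-26372089 (minus strand) for Cldn1.
Cldn2: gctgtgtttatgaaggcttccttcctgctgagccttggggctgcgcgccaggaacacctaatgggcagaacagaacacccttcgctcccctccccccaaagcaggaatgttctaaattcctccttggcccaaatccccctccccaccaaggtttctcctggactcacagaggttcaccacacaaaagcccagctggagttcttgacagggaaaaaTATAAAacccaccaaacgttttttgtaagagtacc
Cldn12: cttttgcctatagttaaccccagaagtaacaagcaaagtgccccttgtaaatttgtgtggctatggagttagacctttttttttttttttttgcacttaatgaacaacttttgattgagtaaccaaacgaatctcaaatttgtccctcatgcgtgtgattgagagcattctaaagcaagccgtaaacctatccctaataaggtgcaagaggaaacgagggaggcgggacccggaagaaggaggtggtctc
Cldn1: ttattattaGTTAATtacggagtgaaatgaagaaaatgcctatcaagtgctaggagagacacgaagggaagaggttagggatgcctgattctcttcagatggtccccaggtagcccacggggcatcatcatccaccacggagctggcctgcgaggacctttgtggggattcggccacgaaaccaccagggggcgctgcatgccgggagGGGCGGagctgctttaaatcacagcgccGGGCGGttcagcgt
The Cldn2 window held a TATA box match that begins 35 bases before the start, the Cldn12 window held no match to the 5 motifs, and the Cldn1 window held 2 GC boxes and an HNF1 core. The lack of a match at Cldn12 holds for the outermost start only. Overlapping windows of its other listed starts shared a GC box, at -13 and -73 from those starts. Snail-type repressors are known to bind E-boxes in claudin and occludin promoters. CACCTG occurred in none of the 3 windows shown and in 2 of the 14 windows of the 8 genes, beside 17.2% of all 32851 windows of this length. The GC box occurred in 9 of the 14, beside 32.7% of all, the TATA box in 3, beside 12.4%, the HNF1 core in 2, beside 6.43%, and the AP-1 site in 0, beside 6.75%. Windows of 1 gene can overlap one another, and a match is a run of letters, not a bound site.

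The difference between the title-number sets was not used to choose the genes and was tested with genotype in the fit. Ocln and Cldn1, each at 1 of 2 tested probe sets, and Tjp1 were lower on the arrays titled 77 and 78 than on the arrays titled 30 to 35, and Cldn3, at 2 of 4, was higher. Of the 17 probe sets tested 5 passed 5% FDR (2 higher and 3 lower), which is 29.4%, beside 27.4% of all tested probe sets (11.7% higher and 15.7% lower), so the junction genes differed between the sets about as often as the array as a whole. Ocln at 1448873_at had signals of 641.2 and 437.7 on the arrays titled 77 and 78 and of 913.7 to 1162 on the others, without overlap, a log2 difference of -0.90 ± 0.158 (n = 2 and 4, limma adjusted p = 0.00884). Without WT 1, when LIGHT Tg 1 alone stands for its set and is assumed to vary like the other arrays, the Ocln difference was -0.71 (limma adjusted p = 0.0684). Its other probe set had -0.20 ± 0.184 (limma adjusted p = 0.433).

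Cldn3 was higher on the arrays titled 77 and 78, with 2329 and 1827 against 1254 to 1624 at 1426332_a_at (log2 difference 0.49 ± 0.117, limma adjusted p = 0.0229). At 1434651_a_at it had 4295 and 4410 against 2563 to 3412 (0.48 ± 0.129, limma adjusted p = 0.0323). The remaining Cldn3 probe sets had differences of 0.30 and 0.37 with no overlap between the sets and did not pass (limma adjusted p = 0.110 and 0.117). Cldn1 at 1450014_at had a log2 difference of -0.66 ± 0.180 (limma adjusted p = 0.0338) and Tjp1 one of -0.48 ± 0.111 (limma adjusted p = 0.0213), each with overlapping signals. At Cldn1 1437932_a_at, the other Cldn1 probe set past the filter, the difference was -0.27 ± 0.328 (limma adjusted p = 0.56), and it was 0.44 without LIGHT Tg 1. The calls at Cldn3, Cldn1 and Tjp1 lay near the threshold: leaving out 1 array ended several of them while the differences kept their sign. Without 1 array the difference at 1426332_a_at was 0.45 to 0.53, and its call remained only without WT 2 (limma adjusted p otherwise 0.0548 to 0.114). At 1434651_a_at it was 0.36 to 0.61, and the call remained only without WT 2 or WT 3 (otherwise 0.0524 to 0.217). The Cldn1 1450014_at difference was -0.80 to -0.53, with the call kept only without WT 3 or LIGHT Tg 2 (otherwise 0.0644 to 0.193), and the Tjp1 difference was -0.56 to -0.39, with the call kept only without WT 2 (otherwise 0.0512 to 0.123). Array weights ended the calls at both Cldn3 probe sets (limma adjusted p = 0.0519 and 0.0795) and at Cldn1 (0.0842), and a fit without the variance trend ended that at Cldn3 1434651_a_at (0.0678). Marveld3, Marveld2, Cldn2, Cldn12 and Cldn14 did not pass at any probe set (lowest limma adjusted p = 0.073, at Cldn12).

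**Figure D3:**
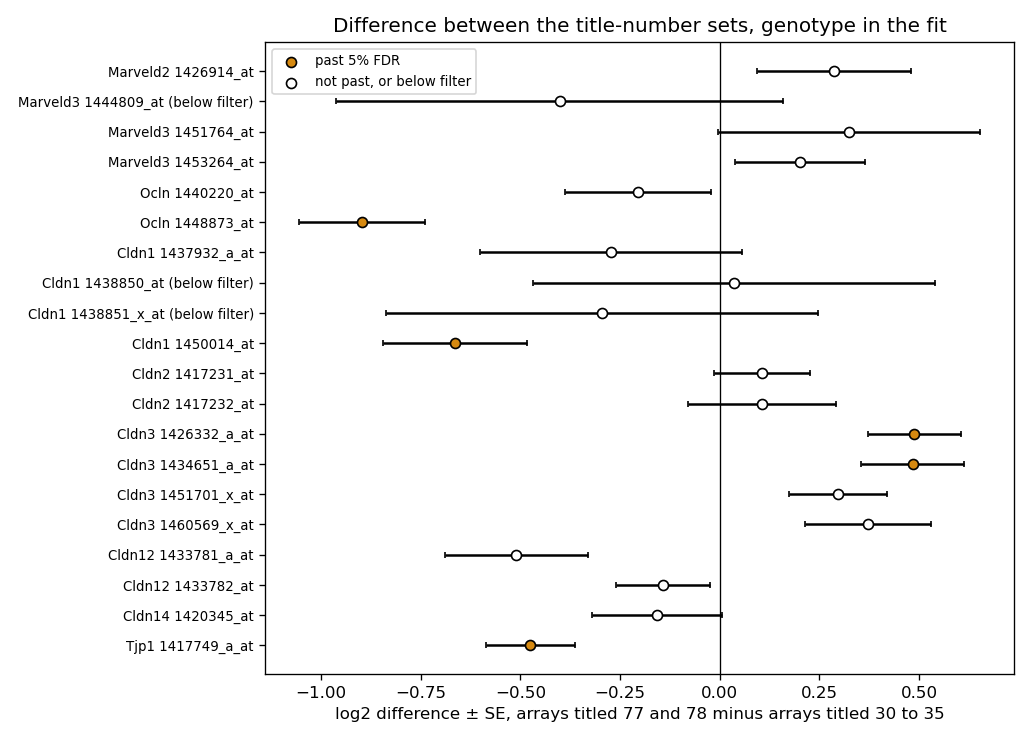
Log2 difference ± SE between the arrays titled 77 and 78 and the arrays titled 30 to 35 for the 20 probe sets, from the fit with genotype; filled points passed 5% FDR. Ocln 1448873_at, Cldn1 1450014_at and Tjp1 lie left of 0 and 2 of the 4 Cldn3 probe sets lie right of it among the filled points.

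Whether the genotype difference itself differed between the title-number sets was tested as an interaction. None of the 17 probe sets passed 5% FDR in limma (lowest adjusted p = 0.297, at Cldn1 1437932_a_at), where 0.0666% of all tested probe sets passed (0.0533% with a positive and 0.0133% with a negative interaction). An unadjusted p below 0.05 was found at 2 of the 17. No share of all probe sets at that threshold is given here, so that count is not read as an excess. With 1 array per genotype titled 77 or 78, this fit had 2 residual degrees of freedom. At Cldn1 1437932_a_at the interaction was -1.44 ± 0.403 on the log2 scale, and at Marveld3 1451764_at it was 1.31 ± 0.433 (limma adjusted p = 0.362).

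Other junction genes were listed for comparison: 82 genes, of which 76 were measured and 61 passed the filter at their brightest probe set. In the limma fit without the block none of the 61 rose and 1 fell, where 1.17% of all tested probe sets passed. At an unadjusted p below 0.05, for which no share of all probe sets is given here, 3 were higher and 6 lower. With the block 2 rose and 6 fell, where 6.47% of all passed. The gene that fell without the block was Ildr2, of the angulin family that recruits Marveld2 to tricellular corners. At 1436293_x_at Ildr2 had signals of 193.4, 227.3 and 203.1 in LIGHT Tg livers and 1787, 1877 and 1649 in WT livers, and fell by 3.09 ± 0.167 on the log2 scale (limma adjusted p = 0.000821). Another Ildr2 probe set past the filter had a log2 difference of -2.64 that did not pass (limma adjusted p = 0.169). The related angulin Lsr had a log2 difference of -0.26 ± 0.146 (limma adjusted p = 0.62), and Ildr1 was below the filter.

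Among the other tight junction membrane proteins, 10 of 12 were tested (median log2 difference 0.16 over the 12), 1 fell, and with the block F11r, which encodes the adhesion molecule JAM-A, rose as well. F11r had signals of 1672, 2120 and 2504 in LIGHT Tg livers and 1203, 1494 and 1632 in WT livers, a log2 difference of 0.53 ± 0.205 (limma adjusted p = 0.0429 with the block, 0.388 without). Its other probe set, 1436374_x_at, was below the filter, with overlapping groups and a log2 difference of -0.42 ± 0.525. Of the other claudins 15 of 19 were measured, 5 passed the filter and none of the 5 passed 5% FDR with or without the block, nor had an unadjusted p below 0.05 (median 0.10 over the 15; lowest unblocked adjusted p in limma 0.656). Cldn5, the endothelial claudin and the brightest of them, had 485.6, 583.2 and 517.0 in LIGHT Tg livers and 481.8, 425.7 and 372.4 in WT livers.

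Of the plaque and polarity proteins 19 of 21 were measured and 17 tested (median -0.09 over the 19). None passed without the block, and with it the multi-PDZ scaffold Mpdz fell (log2 difference -0.97 ± 0.254, limma adjusted p = 0.0326 with the block, 0.172 without). At the other Mpdz probe sets past the filter the log2 differences were -0.47 and 0.10, and neither passed with the block (limma adjusted p = 0.204 and 0.858). The brightest of this list, Ybx3 and Afdn, had -0.23 ± 0.159 and -0.14 ± 0.183. Of 18 other MARVEL domain proteins 17 were tested (median -0.02 over the 18), none passed without the block, and Mal2 and Cmtm8 fell with it. Mal2, which acts in transcytosis to the apical surface of hepatocytes, had signals of 433.4, 432.6 and 643.1 in LIGHT Tg livers and 767.9, 1352 and 1204 in WT livers, a log2 difference of -1.12 ± 0.276 (limma adjusted p = 0.0178 with the block, 0.143 without). Cmtm8 had -0.42 ± 0.126 (limma adjusted p = 0.046 with the block, 0.232 without). The brightest of this list were Cmtm6 and Myadm, with -0.01 ± 0.368 and 0.22 ± 0.164.

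All 12 adherens and gap junction genes were tested (median 0.07), none passed without the block, and with it Cdh1 rose while Cdh2 and Nectin3 fell. Cdh1, E-cadherin, had signals of 2158, 3429 and 4122 in LIGHT Tg livers and 1260, 724.6 and 1451 in WT livers (log2 difference 1.51 ± 0.332, limma adjusted p = 0.0346 with the block, 0.105 without). Cdh2, N-cadherin, had 1874, 2188 and 1837 in LIGHT Tg livers and 2626, 3471 and 3454 in WT livers (-0.69 ± 0.167, limma adjusted p = 0.0192 with the block, 0.139 without). Neither cadherin overlapped between genotypes. Nectin3, an adhesion protein of the adherens junction, had -0.72 ± 0.447 (limma adjusted p = 0.0204 with the block, 0.671 without). Ctnnb1 and the connexin Gjb2, the brightest, had 0.13 ± 0.147 and 0.21 ± 0.263.

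**Figure D4:**
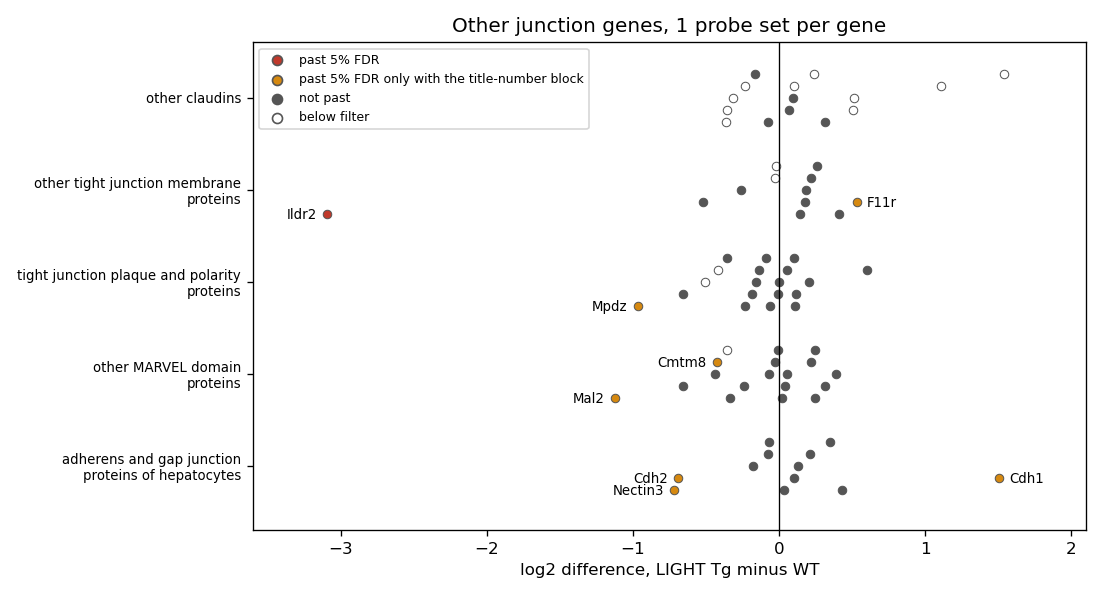
Log2 difference, LIGHT Tg minus WT, of 76 other junction genes in 5 lists, 1 probe set per gene; colours show which passed 5% FDR without the title-number block, which only with it, which did not pass and which were below the filter, and points are spread vertically within a list for legibility. Ildr2 lies at -3.09 and Cdh1 at 1.51, and most other points lie within 1 of 0.

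The genes whose log2 signal followed that of Marveld3 1453264_at most closely over the 6 arrays, among 11562 genes compared, were Ighm, Srp9, F7, Dhx36 and Fam98a, with Pearson correlations between 0.995 and 0.998. The choice by likeness to Marveld3 fixes their direction, and their log2 differences, given as a description, ranged between 0.44 ± 0.123 (Srp9) and 3.62 ± 0.208 (Ighm).

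Markers of liver cell types are given beside these results. The 7 measured hepatocyte markers summed to signals of 115100 to 121700 in LIGHT Tg livers and 113200 to 117900 in WT livers, with none past 5% FDR and 1 at an unadjusted p below 0.05 in limma. With the title-number block the asialoglycoprotein receptor gene Asgr1 rose (log2 difference 0.57 ± 0.143, limma adjusted p = 0.0102 with the block, 0.153 without). Of the bile duct markers 6 of 8 were measured and 2 passed the filter: Prom1, which rose, and Epcam, which did not pass between genotypes. Prom1 had signals of 2766, 1890 and 2844 in LIGHT Tg livers and 60.85, 235.9 and 166.8 in WT livers. Its mean WT signal of 154.5 was below the filter level, so Prom1 entered the fit through its LIGHT Tg signal. Without Prom1 the sum was 447.2 to 3980 in LIGHT Tg livers and 746.4 to 6300 in WT livers, and the keratin Krt19 had 100.9 to 201.2 in LIGHT Tg livers and 97.32 to 191.3 in WT livers. Epcam was at 3598 and 5846 on the arrays titled 77 and 78, against 219.3 to 755.7 on the others. The 8 endothelial markers summed to 10280 to 13200 in LIGHT Tg livers and 6892 to 7927 in WT livers, and 2 of 8, Lyve1 and Vwf, rose. At Vwf the mean WT signal of 164.7 lay just below the filter level, so Vwf entered the fit through its LIGHT Tg signal. Clec4g, the brightest of the 8, had a log2 difference of 0.36 ± 0.175 without overlap. Pecam1, Cdh5, Tie1 and Kdr overlapped between genotypes, with log2 differences of 0.19, 0.12, 0.15 and -0.09, so the rise was not shared by all endothelial markers. With the block Stab2 rose as well (0.75 ± 0.176, limma adjusted p = 0.0127 with the block, 0.125 without). Their part in the claudin, MARVEL and Tjp1 differences was not tested.

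Of the remaining marker lists none had a gene past 5% FDR in limma without the block, and 4 genes had an unadjusted p below 0.05. All 7 Kupffer cell and macrophage markers and all 7 stellate and fibroblast markers were tested. Of the measured genes in other lists, 3 of 5 B and plasma cell, 2 of 5 gut, 1 of 5 T cell and 1 of 3 pancreatic markers were tested. None of the 4 mesothelial markers passed the filter, so that list was not tested. Ighm, the immunoglobulin heavy chain gene of B and plasma cells, is in no marker list and was the gene most like Marveld3, with signals of 5978, 3872 and 4375 in LIGHT Tg livers and 398.8, 413.8 and 330.4 in WT livers. The plasma cell marker Jchain had a log2 difference of 0.94 ± 0.332 (limma adjusted p = 0.335). The rest of its list did not share that difference: Mzb1 had -0.10 and Ms4a1 -0.19. Below the filter, Cd79a had 0.10 and Cd79b -0.37. The part of B and plasma cells in the Marveld3 difference was not tested. Kupffer cell and macrophage markers summed to 19670 to 31720 in LIGHT Tg livers and 28260 to 32280 in WT livers, and stellate and fibroblast markers to 15360 to 16510 in LIGHT Tg livers and 15430 to 18140 in WT livers. T cell markers summed to 720.9 to 867.6 in LIGHT Tg livers and 760.6 to 811.3 in WT livers, B and plasma cell markers to 1140 to 1777 in LIGHT Tg livers and 1094 to 1321 in WT livers, and mesothelial markers to 317.2 to 513.4 in LIGHT Tg livers and 417.3 to 536.4 in WT livers. Gut epithelial markers summed to 5792 to 7110 in LIGHT Tg livers and 5039 to 6274 in WT livers, mostly from Fabp2. The 2 tested, Fabp2 and Lgals4, went opposite ways, with log2 differences of 0.30 ± 0.133 and -1.04 ± 0.338. Pancreatic acinar markers, mostly Cela1, summed to 924.3 to 1085 in LIGHT Tg livers and 1281 to 1738 in WT livers, and Cela1 fell with the block (-0.59 ± 0.185, limma adjusted p = 0.0304 with the block, 0.261 without).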

How the data were processed

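The authors deposited MAS5 signal intensity on a linear scale, 1 value per probe set and array; the submitters' processing notes name MAS5, without a version, a scaling target or detection calls. Of 45101 probe sets 64 controls were left out. Of the other 45037, 34945 had 1 gene symbol in the platform annotation, 932 had several and 9160 none here; RefSeq names of GRCm38.p6 changed 0 symbols. Signals were floored at 1, which raised 106 values, before the log2 transform. Linear models for LIGHT Tg minus WT were fitted in limma 3.58.1 under R 4.3.3 (lmFit, then eBayes allowing a trend of variance with mean) over the 22519 probe sets whose mean log2 signal reached the median, two-sided, with Benjamini-Hochberg adjustment and a threshold of 5% FDR. With 3 arrays a group, 0.1 is the smallest p of an exact permutation test. The title-number sets and their interaction with genotype were tested in the same way. Members below the filter have values from the fit without it. Genes of the lists are represented by their brightest probe set, and 14 of 147 list entries were not analysed here. The rule for named genes took all member probe sets; from each junction list up to 4 genes past 5% FDR with or without the block and the 2 brightest; and the 5 genes most like Marveld3. Asgr1, Stab2, Jchain, Eif2s3y, Xist, Ildr1, Epcam, Krt19, Prom1, Lyve1, Vwf, Fabp2 and Cela1 were named after their values were seen. So were Mzb1, Ms4a1, Cd79a, Cd79b, Lgals4, Clec4g, Pecam1, Cdh5, Tie1 and Kdr. Members and lists were chosen with earlier results of these data known. Replicate numbers follow listing order and pair no samples; the sets are those of the title numbers. Steps were tested on simulated data. Figures used matplotlib 3.10.9 (Python 3.11.15).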

Additional observations from a re-analysis of the deposited data

How the results depend on the processing

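The log2 difference at Marveld3 1453264_at, a gene chosen on this contrast, lay between 2.67 (offset of 37.4, the 20th percentile of all signals, before log2) and 3.06 over the 15 alternatives that kept it, and the filter at the 75th percentile removed it. The count of member probe sets past the threshold, 1 as reported, was 0 with that filter, 6 with array weights, 5 with the title-number block, 2 in the arrays titled 30 to 35 alone (an alternative chosen after seeing the data) and 1 whichever array was left out. Over all probe sets the count, 264 as reported, was 148 without the variance trend, 1992 with array weights, 1457 with the block, 956 in the arrays titled 30 to 35 alone and 43 to 306 with 1 array left out. Between the title-number sets it was 6163 as reported, 3465 with the filter at the 75th percentile, 3632 with array weights and 2698 to 4632 with 1 array left out. For the interaction it was 15 as reported, 3 with no filter, 7 with the filter at the 75th percentile and 2 without the trend. Quantile normalization, a common median and robust fitting kept the 4 counts within 1.5 times. The cause of these shifts was not tested. Among probe sets past the filter, leaving out 1 array changed the sign of the difference between the title-number sets at Marveld3 1451764_at (-0.33 to 0.98), Cldn1 1437932_a_at (-0.99 to 0.44), Cldn2 1417232_at (-0.11 to 0.32) and Cldn14 1420345_at (-0.34 to 0.029). No paired analysis was possible because the labels give no replicate numbers shared by the genotypes. Without detection calls, low signals carry no bound.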
